A study of Mus musculus with 24 samples.

Results

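The genes described here are Tdgf1, Zscan10, Nr5a1, Pou5f1-rs4 and Pou5f1-rs6, 5 of the 1753 genes listed in at least 1 of 23 tables of changed genes from P19 mouse embryonal carcinoma cells. They were matched by exact symbol, and they were chosen by their measured values in these tables, as the 5 lowest log2 fold changes of WT cells treated with ATRA for 4 days and sampled on day 10. The values in that table are therefore a description of the choice. Just inside it lay Pou5f1-rs6 at -9.92, and just outside it lay Pou5f1 at -9.88 and D7Ertd143e at -9.71.

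P19 cells are a teratocarcinoma line that grows as undifferentiated cells and becomes neuronal when retinoic acid is given. The study compared wild-type cells (WT) with 3 CRISPR/Cas9 lines, raraKO, rarbKO and rargKO, made by placing a puromycin cassette in the gene of 1 retinoic acid receptor (RAR). Cells in monolayer were given all-trans retinoic acid (ATRA, an agonist of all RARs) at 1 µM, BMS753 (RARα agonist) at 1 µM, BMS641 (RARβ agonist) at 0.1 µM, BMS961 (RARγ agonist) at 0.1 µM, BMS641 and BMS961 together at 0.1 µM each, or the vehicle ethanol (EtOH). Ligand was present for 4 days, and cells taken on day 10 had then spent 6 days in Neurobasal medium with N2 and B27 and no vitamin A. RNA was taken on days 2, 4 and 10 from WT and on day 10 from the mutant lines.

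Every condition was 1 library, and every table held log2 fold changes against the same library, WT with EtOH on day 2, which has no table of its own. A gene entered a table only when its unadjusted p-value was under 0.01. "Listed" below means that a gene passed that limit, and "fell" means that it was listed with a log2 fold change under -2, which is a level more than 4-fold lower. A gene that is not listed may have fallen by less than the table could resolve. Shares of genes given below are of the genes listed in at least 1 table, not of all genes measured. The standard error (SE) beside a value is the one implied by the value and its p-value, and it describes the authors' model fitted over unreplicated libraries, not a spread between cultures. No test between conditions was made, and because all tables share 1 reference library, they are not independent of each other. Library totals were not given, so the depth behind each value is unknown, and in bulk RNA fewer undifferentiated cells and less RNA per cell cannot be told apart. Rara, Rarb and Rarg were listed in no table, so the knockouts could not be checked from these values.

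Pluripotent cells hold their state through a set of transcription factors around Pou5f1 (Oct4), Sox2 and Nanog, which is shut down as retinoic acid drives differentiation. Tdgf1 (Cripto) is a cell-surface co-receptor for the ligand Nodal, a signal of the early embryo. Zscan10 is a zinc-finger transcription factor of pluripotent cells, and Nr5a1 (SF-1) is an orphan nuclear receptor best known from steroid-producing glands. Pou5f1-rs4 and Pou5f1-rs6 are processed copies of the Pou5f1 mRNA that were inserted elsewhere in the genome, and RefSeq classes both as transcribed pseudogenes.

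In the mm9 build, to which the authors aligned their reads, Tdgf1 (ENSMUSG00000032494.8) spans chr9:110842114-110848662 on the minus strand. Zscan10 (ENSMUSG00000023902.11) spans chr17:23737823-23747986 on the plus strand, and Nr5a1 (ENSMUSG00000026751.7) spans chr2:38548176-38570062 on the minus strand. The 2 retrocopies carry no name of their own in GENCODE vM1 and were placed by aligning the Pou5f1 mRNA to mm9. Pou5f1-rs4 was taken as the match at chr3:129136509-129137853, between Enpep and Elovl6, the same neighbours that RefSeq gives it. Pou5f1-rs6 was taken as the match at chr14:17938072-17938822, between Rarb and Thrb, again as in RefSeq. Pou5f1 itself lies at chr17:35642982-35647721, with 5 exons.

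The retrocopies are shown because their values depend on how well a read can be assigned to them. The alignment paired 1303 of the 1347 bases of the Pou5f1 mRNA with Pou5f1-rs4, and 115 of these bases differed. Pou5f1-rs6 holds only the later part of the mRNA, with 728 paired bases of which 68 differed. The longest stretch of coding sequence that paired without a gap in all 3 runs from base 828 to base 938 of the mRNA, across the junction after base 858 that joins exon 4 to exon 5. Capitals mark bases that differ from Pou5f1, 9 in Pou5f1-rs4 (chr3:129137334-129137444, plus strand) and 11 in Pou5f1-rs6 (chr14:17938315-17938425, plus strand).
Pou5f1: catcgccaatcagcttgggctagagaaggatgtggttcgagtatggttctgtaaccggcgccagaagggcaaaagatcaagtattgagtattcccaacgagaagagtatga
Pou5f1-rs4: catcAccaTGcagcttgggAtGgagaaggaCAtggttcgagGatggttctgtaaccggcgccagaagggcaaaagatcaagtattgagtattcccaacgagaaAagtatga
Pou5f1-rs6: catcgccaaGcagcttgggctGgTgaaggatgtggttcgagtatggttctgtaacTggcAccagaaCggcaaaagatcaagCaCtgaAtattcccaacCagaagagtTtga

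The members fell in 56 of the 115 pairs of gene and condition, were listed in 57, and rose in 0. Of these, 5 falls are those of WT with ATRA on day 10, which chose the members, and without that table the count was 51 of 110. In the 22 tables left, between 0.57% and 10.4% of all 1753 genes fell. These tables share the reference library with the table that chose the members, so their falls are not independent of the choice. On day 10, the 6 other tables of ATRA and BMS753 held 26 falls in 30 pairs, where between 6.79% and 10.4% of all 1753 genes fell. The 9 tables of the remaining ligands and of EtOH held 12 in 45, where between 6.67% and 8.61% of all genes fell. Tdgf1 fell in 16 tables, Pou5f1-rs4 in 12, Pou5f1-rs6 in 10, and Zscan10 and Nr5a1 in 9 each. The count for Tdgf1 was 10 at a threshold of -5. Set against WT EtOH of the same day, it was 7 of the 12 day 10 tables that could be compared. The falls of days 2 and 4 are not in that count, since EtOH on day 4 did not list Tdgf1 and day 2 was left out. The count for Pou5f1-rs4 was 7 with a p-value limit of 0.001. The tables differ in how small a fall they can list. The smallest fall listed on day 10 was between 4.17 and 4.73 on the log2 scale with ATRA or BMS753, and between 2.75 and 3.35 in the other tables, so the ATRA and BMS753 tables set the higher bar.

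**Figure D1:**
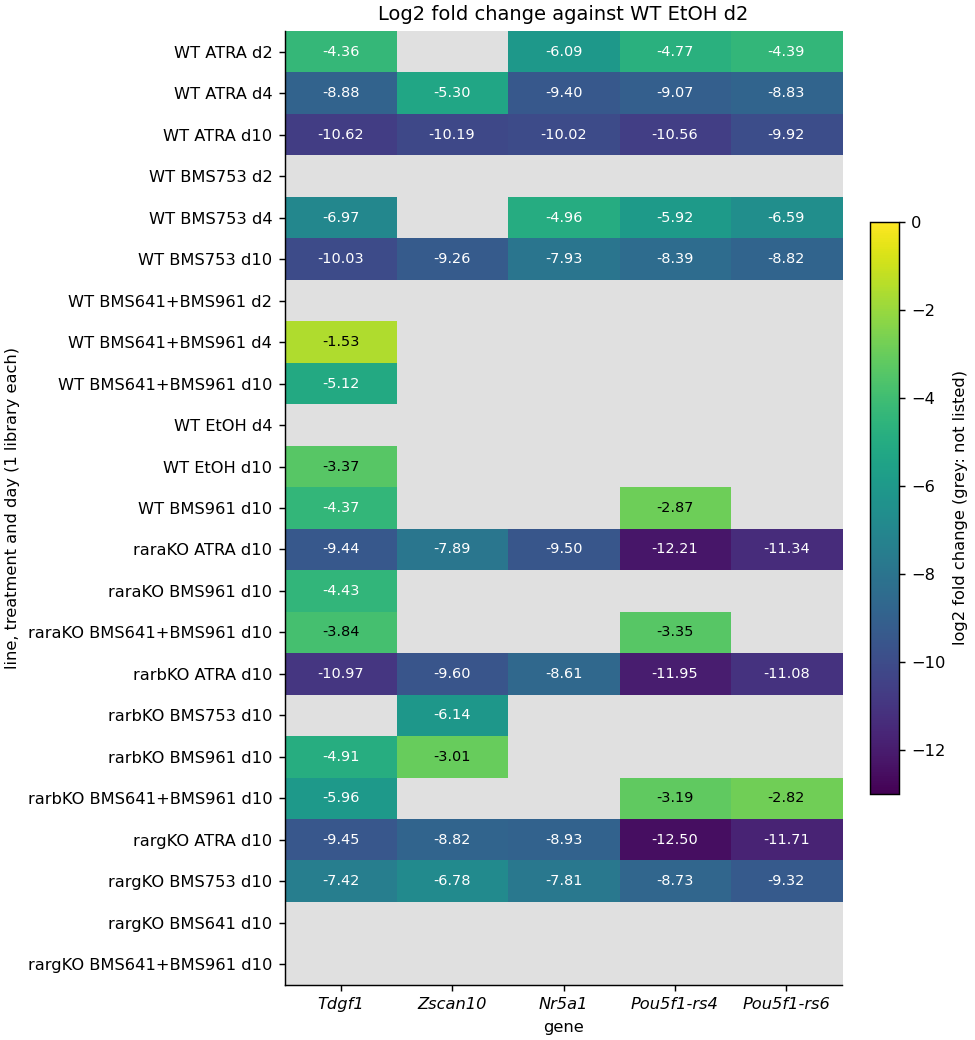
Log2 fold change of each of the 5 genes (columns) in each of the 23 conditions (rows, 1 library each) against WT EtOH on day 2; grey cells are not listed. The 4 rows of ATRA on day 10 are filled for all 5 genes with values between -12.50 and -7.89, and the 2 rows of rargKO with BMS641 are empty.

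In WT cells, the fall had begun by day 2 of ATRA. Nr5a1, the nuclear receptor, had the lowest value of the members there, with a log2 fold change of -6.09 (SE 1.84). Pou5f1-rs4 was at -4.77 (SE 1.59), Pou5f1-rs6 at -4.39 (SE 1.56) and Tdgf1 at -4.36 (SE 1.56). These 4 differed from each other by about 1 SE or less, and Zscan10 was not listed. Thus 4 of 5 members fell in a table in which 2.57% of the 1753 genes did. With BMS753 on day 2 no member was listed, in a table where 1.88% of genes fell and falls of 1.97 were resolved for some genes. With BMS641 and BMS961 together on day 2 no member was listed either, and 1.48% of genes fell.

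By day 4 of ATRA all 5 members had fallen, against 5.7% of genes. Nr5a1 reached -9.40 (SE 2.44), Pou5f1-rs4 -9.07 (SE 2.31), Tdgf1 -8.88 (SE 2.39) and Pou5f1-rs6 -8.83 (SE 2.37). Zscan10 appeared for the first time, at -5.30 (SE 1.82), well above the other members. From day 2 to day 4, Tdgf1 dropped by a further 4.53, Pou5f1-rs6 by 4.44, Pou5f1-rs4 by 4.30 and Nr5a1 by 3.31 on the log2 scale. Each of these steps was larger than the SEs of both tables combined as the root of their summed squares, which were between 2.80 and 3.05 and do not allow for the shared reference.

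BMS753 on day 4 gave falls of the same 4 genes in a table in which 3.31% of genes fell. Tdgf1 was at -6.97 (SE 2.09), Pou5f1-rs6 at -6.59 (SE 2.03), Pou5f1-rs4 at -5.92 (SE 1.90) and Nr5a1 at -4.96 (SE 1.75). All 4 lay above their ATRA values. Nr5a1 differed by 4.45 and Pou5f1-rs4 by 3.15 on the log2 scale, both more than their combined SE, while the differences of Tdgf1 and Pou5f1-rs6, 1.91 and 2.24, were smaller than their combined SEs of 3.18 and 3.12. The members thus stood in another order, with Nr5a1 the lowest of them under ATRA and the highest of the 4 under BMS753. Zscan10 was again the member not listed.

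The remaining WT tables of day 4 held little of the group. BMS641 with BMS961 listed Tdgf1 at -1.53 (SE 0.56), above the threshold of -2 that 2.91% of genes passed. EtOH on day 4 listed no member, and 0.57% of genes fell there.

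On day 10 of the ATRA course, the values that chose the group lay between -10.62 and -9.92, with SEs between 2.39 and 2.55, in a table where 8.61% of genes fell. Tdgf1 was at -10.62, Pou5f1-rs4 at -10.56, Zscan10 at -10.19, Nr5a1 at -10.02 and Pou5f1-rs6 at -9.92, a range well within 1 SE. From day 4 Zscan10 went 4.89 lower (combined SE 3.01), and the others moved by between 0.62 and 1.74. These steps end on the values that chose the members and are a description only.

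**Figure D2:**
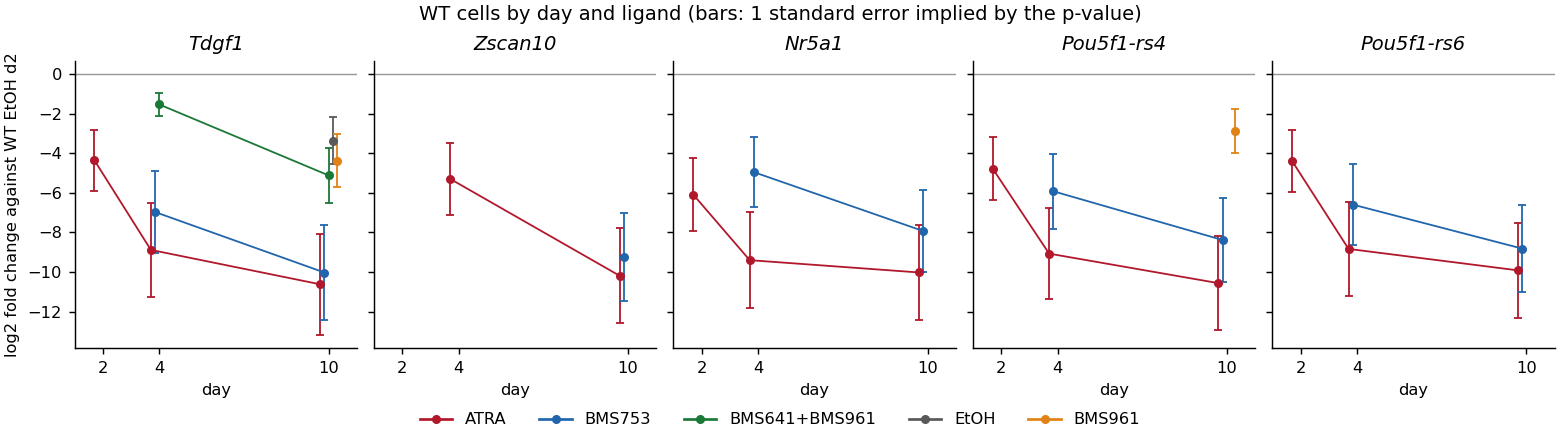
Log2 fold change against WT EtOH on day 2 (y axis) by day (x axis) for each gene in WT cells, coloured by ligand; points are single libraries, bars are 1 implied SE, and points that are not listed are absent. With ATRA, Zscan10 starts at -5.30 on day 4 while the other 4 genes are already between -9.40 and -8.83.

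With BMS753 on day 10 all 5 members fell, as did 9.13% of genes. Tdgf1 was at -10.03 (SE 2.38), Zscan10 at -9.26 (SE 2.22), Pou5f1-rs6 at -8.82 (SE 2.19), Pou5f1-rs4 at -8.39 (SE 2.11) and Nr5a1 at -7.93 (SE 2.09). ATRA and BMS753 were both used at 1 µM and could be compared for a member 15 times over lines and days. The comparisons share the reference and the genes. The difference exceeded the combined SE in 4 of the 15, and in each of the 4 the ATRA value was the lower. In WT on day 10 the difference was smallest for Tdgf1, 0.60 lower with ATRA (combined SE 3.49), and largest for Pou5f1-rs4, 2.18 lower (combined SE 3.19). None of the 5 differences of that day, whose ATRA values chose the members, exceeded its combined SE.

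Tdgf1 was the only member listed with vehicle. In WT with EtOH on day 10, where 7.64% of genes fell, it was at -3.37 (SE 1.19). BMS961 gave -4.37 (SE 1.33) and BMS641 with BMS961 gave -5.12 (SE 1.40), with 7.47% and 8.5% of genes falling in those tables. The differences from EtOH, 1.00 lower (combined SE 1.79) and 1.75 lower (combined SE 1.84), did not exceed the error. ATRA, in the table that chose the members, and BMS753 lay 7.25 (combined SE 2.82) and 6.66 (combined SE 2.66) below EtOH. The 24 samples hold no vehicle library of a mutant line, so the values of the mutant lines could be set only against WT EtOH of the same day. Over all lines that list it, Tdgf1 was lower than in that table by 4.05 to 7.60 log2 units with ATRA or BMS753 and by 0.47 to 2.59 with the other ligands. Of the latter, only rarbKO with BMS641 and BMS961, 2.59 lower, exceeded its combined SE (1.91), which is not a test. That comparison crosses lines, and against WT with the same ligands Tdgf1 was 0.84 lower (combined SE 2.04).

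Among the other members, Pou5f1-rs4 was listed in WT with BMS961 at -2.87 (SE 1.11), the smallest fall in that table. Zscan10, Nr5a1 and Pou5f1-rs6 were listed in no WT table other than those of ATRA and BMS753. The smallest falls listed for any gene on day 10 were 2.77 with EtOH and 2.87 with BMS961. For Zscan10 with BMS961, its SE with that ligand in rarbKO would have required a fall of 2.88. The falls needed by Nr5a1 and Pou5f1-rs6 with either treatment, and by Zscan10 with EtOH, are not known. No table of the same treatment on day 10 lists them.

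In the mutant lines given ATRA, all 5 members fell in each line. The share of all genes that fell was 10.4% in raraKO, 10.3% in rarbKO and 9.47% in rargKO. Tdgf1 was at -9.44 (SE 2.19) in raraKO, -10.97 (SE 2.55) in rarbKO and -9.45 (SE 2.31) in rargKO, on both sides of its WT value. Zscan10 was at -7.89 (SE 2.01), -9.60 (SE 2.30) and -8.82 (SE 2.22) in the same order, above WT in each line. Nr5a1 was at -9.50 (SE 2.17), -8.61 (SE 2.20) and -8.93 (SE 2.24), also above WT in each.

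The retrocopies went the other way, and so did Pou5f1. Pou5f1-rs4 was at -12.21 (SE 2.41) in raraKO, -11.95 (SE 2.51) in rarbKO and -12.50 (SE 2.58) in rargKO, and it was the lowest gene of the whole table in all 3. Pou5f1-rs6 was at -11.34 (SE 2.47), -11.08 (SE 2.55) and -11.71 (SE 2.78). Both were lower than in WT in each mutant line, by 1.17 to 1.94 on the log2 scale. Pou5f1 was lower than in WT by 1.37 in raraKO, 1.16 in rarbKO and 1.06 in rargKO, each below its combined SE. Of the 15 differences of the members between a mutant line and WT under ATRA, however, 0 exceeded the combined SE. The largest was Zscan10 in raraKO, 2.30 higher (combined SE 3.14). The WT values in these differences are those that chose the members, so the differences, and their sides, are a description only.

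**Figure D3:**
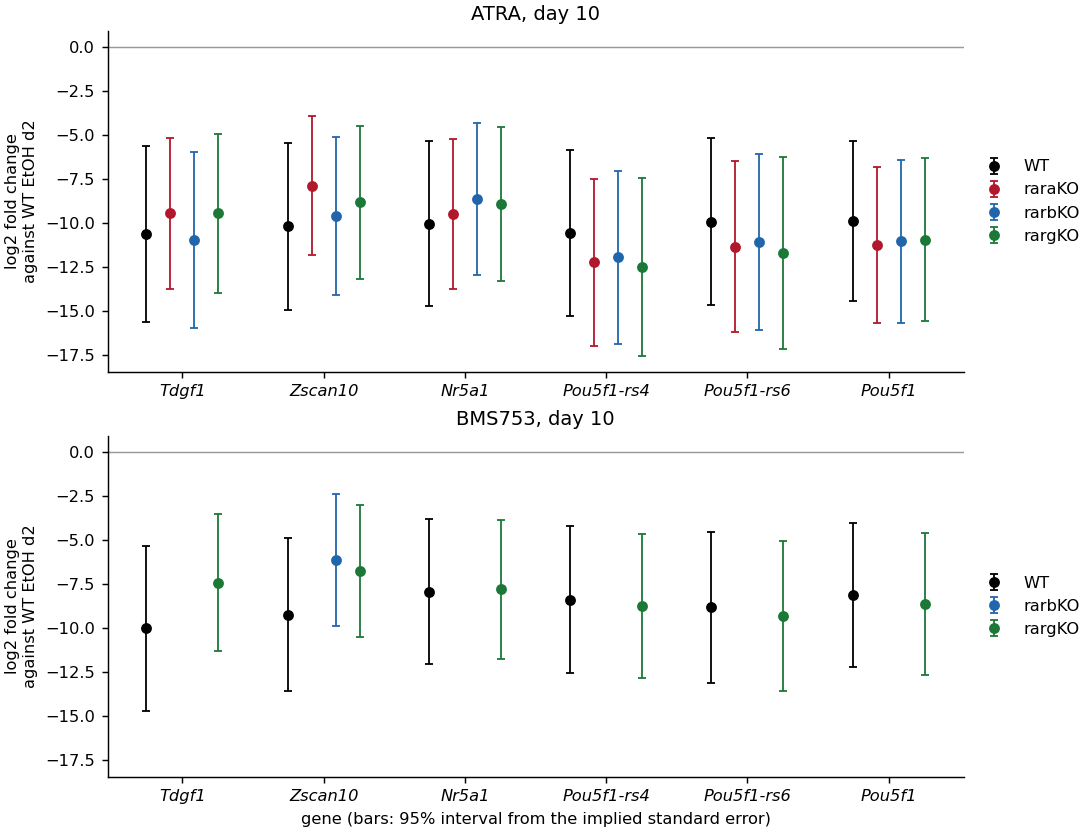
Log2 fold change against WT EtOH on day 2 (y axis) of the 5 genes and of Pou5f1 (x axis) on day 10 with ATRA (upper panel) and BMS753 (lower panel), coloured by line; points are single libraries and bars are 95% intervals from the implied SE. In the lower panel rarbKO has 1 point, Zscan10 at -6.14, while WT and rargKO have a point for every gene. The samples hold no library of raraKO with BMS753.

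BMS753 was given to WT, rarbKO and rargKO, with 1 library each. In rargKO all 5 members fell with BMS753, against 10.3% of genes. Tdgf1 was at -7.42 (SE 1.98), Zscan10 at -6.78 (SE 1.91), Nr5a1 at -7.81 (SE 2.01), Pou5f1-rs4 at -8.73 (SE 2.08) and Pou5f1-rs6 at -9.32 (SE 2.16). Tdgf1 and Zscan10 were 2.61 and 2.47 higher than in WT, below the combined SEs of 3.10 and 2.93, and the other members lay within 0.50 of WT.

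In rarbKO with BMS753 only Zscan10 was listed, at -6.14 (SE 1.91), and 6.79% of all genes fell. It was 3.12 higher than in WT (combined SE 2.92). Tdgf1, Nr5a1 and both retrocopies were absent from that table, and so was Pou5f1. The SEs of these members with BMS753 in WT and rargKO would have required a fall of 5.10 to 6.13 for Tdgf1, 5.18 to 5.38 for Nr5a1, 5.36 to 5.45 for Pou5f1-rs4 and 5.56 to 5.63 for Pou5f1-rs6. The WT falls of 10.03, 7.93, 8.39 and 8.82 are above these limits. The implied SE was smaller at smaller falls, for Tdgf1 0.56 at -1.53 and 2.38 at -10.03, so these limits may be too high. The smallest fall listed for any gene in rarbKO with BMS753 was 4.46. Whether the members fell by less in this library was not tested, since it has no replicate.

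The neural genes were read in the same libraries. Of 20 markers of neurons and their progenitors, 15 were listed in at least 1 table. In rarbKO with BMS753, 13 of the 20 rose (log2 fold change over 2) and 1 member fell. Of the genes listed in at least 1 table, 22.3% rose there. The 20 markers were not chosen by being listed, so their counts and these shares have unlike bases. In rarbKO with ATRA 2 rose, where 20.5% of the genes listed in at least 1 table rose and all 5 members fell. In WT 12 rose with ATRA and 10 with BMS753, in tables where 22.5% and 21.8% of genes rose, and all 5 members fell in both. In rargKO 9 rose with ATRA and 11 with BMS753, where 21.4% and 19.9% of genes rose, again with all 5 members fallen. In raraKO with ATRA 5 rose, where 19% of genes rose and all 5 members fell. With EtOH in WT on day 10, 1 marker rose and 1 member fell. The share of genes that rose was not computed there. That table lists 301 genes, against 510 to 546 in the ATRA and BMS753 tables, so its count cannot be set against theirs. Of 11 mesenchymal and muscle genes, 6 rose in rarbKO with ATRA and 5 with BMS753. The counts were similar elsewhere, with 5 in WT with ATRA and 5 with BMS753, and 6 in raraKO with ATRA. In rargKO they were 6 with ATRA and 4 with BMS753.

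With the other ligands the mutant lines listed between 0 and 3 members on day 10. Tdgf1 was listed in raraKO and rarbKO with both treatments and in neither of the rargKO tables. In raraKO it was at -4.43 (SE 1.45) with BMS961, where 8.61% of genes fell, and at -3.84 (SE 1.37) with BMS641 and BMS961, where 6.67% fell. In rarbKO it was at -4.91 (SE 1.38) with BMS961, where 6.96% fell, and at -5.96 (SE 1.49) with the combination, where 7.64% fell.

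Pou5f1-rs4 joined it in raraKO with the combination at -3.35 (SE 1.29), and in rarbKO with the combination at -3.19 (SE 1.12) together with Pou5f1-rs6 at -2.82 (SE 1.09). Zscan10 was listed in rarbKO with BMS961 at -3.01 (SE 1.12). Each of these falls was near the smallest that its table lists. In rargKO neither BMS641 alone nor BMS641 with BMS961 gave any member, although 7.82% and 7.3% of genes fell in those tables. For Tdgf1, the SEs it had with the combination in the other lines would have required a fall of 3.54 to 3.83. Its falls with the combination were 5.12 in WT, 5.96 in rarbKO and 3.84 in raraKO, the last of them at that limit. The SE was smaller at smaller falls, and Tdgf1 was listed at -3.37 in WT with EtOH on day 10, so the limit may be too high.

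The retrocopies moved with Pou5f1, which was listed in 9 tables, the same 9 as Nr5a1. In these, Pou5f1-rs4 differed from Pou5f1 by a mean of 0.71 on the log2 scale and by at most 1.57, and it was the lower in 8. Pou5f1-rs6 differed by a mean of 0.53 and at most 1.21, and it too was the lower in 8. All of these differences were below 1 SE of the single values. In 3 tables Pou5f1-rs4 was listed without Pou5f1, at -2.87, -3.35 and -3.19, and in 1 of them Pou5f1-rs6 was as well.

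**Figure D4:**
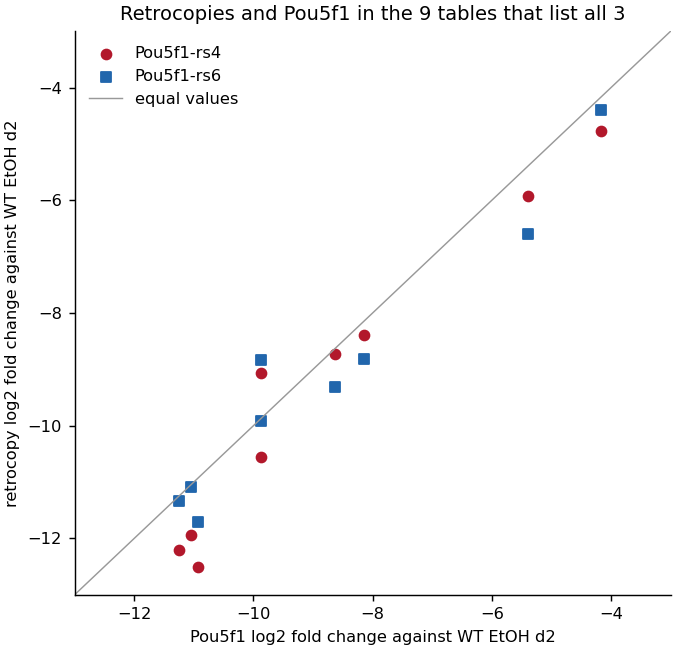
Log2 fold change of Pou5f1-rs4 (circles) and Pou5f1-rs6 (squares) on the y axis against that of Pou5f1 on the x axis in the 9 tables that list all 3, with a line of equal values. Of the 9 points of each retrocopy, 8 lie below the line, and none is farther from it than 1.57.

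Reads of the retrocopies and of Pou5f1 can be confused, since the reads were 150 bases long and were aligned with Bowtie, which does not split a read over an intron. Of the 1198 windows of 150 bases in the Pou5f1 mRNA, 550 cross an exon junction and therefore have no unbroken match at the Pou5f1 locus. No window was identical to a retrocopy. Within 15 edits (substitutions, insertions or deletions) of Pou5f1-rs4 were 144 of the 550 junction windows, and the closest had 8 edits. For Pou5f1-rs6 9 of the 550 were within 15 edits, and the closest had 14. Among the 648 windows inside 1 exon, which match the Pou5f1 locus exactly, the fewest edits were 6 to Pou5f1-rs4 and 9 to Pou5f1-rs6. The part of shared reads in the values of the retrocopies was not tested, and their falls cannot be told apart from that of Pou5f1 in these tables.

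**Figure D5:**
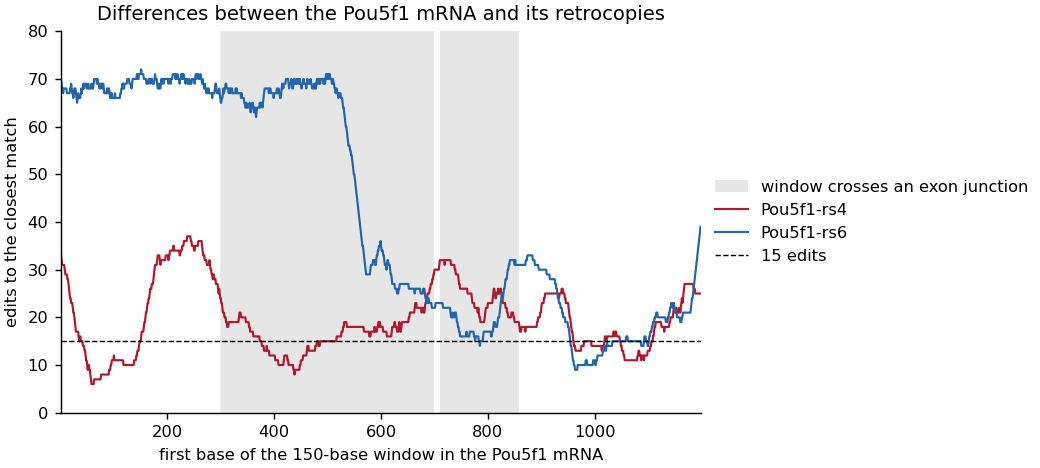
Edits between each 150-base window of the Pou5f1 mRNA (x axis, first base of the window) and its closest match in Pou5f1-rs4 or Pou5f1-rs6 (y axis), with grey where the window crosses an exon junction and a dashed line at 15 edits. Pou5f1-rs4 goes below the line within the grey area, where its lowest value is 8, and Pou5f1-rs6 barely does, with a lowest value of 14.

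Of the 7 other named retrocopies of Pou5f1, Pou5f1-rs5 was listed in 8 tables and Pou5f1-rs8 in 2, all with falls. The value of Pou5f1-rs5 was the same within 0.0001 in 6 tables, at -7.43, and the reason for the repeat was not tested. No member had the same value within 0.0001 in any 2 tables.

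Other genes of the pluripotent state were read from lists set down for these cells. Of 21 core pluripotency factors 10 were listed in at least 1 table, 9 with falls and 1, Klf4, with rises only, in 8 tables. Nanog, a core factor, fell in 13 tables, with a lowest value of -7.55, and Nr0b1 (Dax1), an orphan nuclear receptor that represses Nr5a1 targets, fell in 17, with a lowest value of -9.74. Of 30 other pluripotency markers 15 were listed and 14 fell somewhere. In rarbKO with BMS753, where 1 member and 6.79% of genes fell, 3 core factors and 9 other markers fell. In WT with BMS753 on day 10, where 9.13% of genes fell, the counts were 8 and 12. Pou5f1, Nanog, Sall4, Zfp296 and Sox15 fell in that WT table and were not listed in rarbKO with BMS753. Of the genes that fell in rarbKO with BMS753, Utf1 was at -5.72 (SE 1.86) and Nr0b1 at -5.80 (SE 1.91). Fgf4, a growth factor of the epiblast, was at -7.95 (SE 2.17) there. In rarbKO with ATRA, where 10.3% of genes fell, the counts were 8 and 12.

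Of 19 genes of the Nodal pathway other than Tdgf1, 5 were listed, and all of these fell: the ligands Nodal and Gdf3, the inhibitors Lefty1 and Lefty2, and Foxh1, the transcription factor of the pathway. All 5 fell in the ATRA tables of every line on day 10 and with BMS753 in WT and rargKO. In rarbKO with BMS753 0 of them were listed, as for Tdgf1. In WT with ATRA on day 10 Gdf3 was at -9.28 (SE 2.36), Lefty1 at -9.24 (SE 2.30), Lefty2 at -7.64 (SE 2.61), Nodal at -7.59 (SE 2.20) and Foxh1 at -6.31 (SE 2.02). With EtOH on day 10, where Tdgf1 fell, Lefty2 was at -7.64 (SE 2.52), the same value as with ATRA within 0.0001. The value -7.64 also recurred in WT with ATRA on day 4, WT with BMS753 on day 10 and rarbKO with ATRA. It is therefore not read as equal measured falls, and the reason for the repeat was not tested. Lefty1 was at -3.05 (SE 1.14) with EtOH on day 10, and Nodal, Gdf3 and Foxh1 were not listed. The receptors of the pathway were not listed. Of 17 genes of steroid synthesis, the process Nr5a1 is best known for, only the regulator Nr0b1 was listed, and none of the enzymes.

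The genes whose tables of falls were most alike were found over all 1753 genes, as the share of tables under -2 that both genes have of those that either has. For Tdgf1 it was Fgf4, with 15 shared tables (share 0.88), followed by Mup6, Cnga3, Enpp3 and Aqp3. For Zscan10 it was Clca4a, with 9 shared tables (share 0.90), followed by Lin28a, an RNA-binding protein of undifferentiated cells, then Tmem82, Fgfbp1 and Nodal. For Nr5a1 it was Pou5f1, with all 9 tables shared, followed by Utf1, Foxi3, Pou5f1-rs6 and Tnnt1. For Pou5f1-rs4 it was Pou5f1-rs6, with 10 shared tables (share 0.83), followed by Tnnt1, Ccl17, Col6a5 and Tbx1. For Pou5f1-rs6 it was Pou5f1, with 9 shared tables (share 0.90), followed by Nr5a1, Pou5f1-rs4, Utf1 and Foxi3.

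Promoter sequences from RefSeq (GRCm38.p6) were matched for Tdgf1 and Zscan10, 2 of the 5 members, and the 250 bases before the start site of each were also found unchanged in mm9. They are shown because both genes fell with ATRA and with BMS753 in WT on day 10. With other treatments Tdgf1 fell in 7 tables and Zscan10 in 1. In the window from 250 bases before to 50 after the start, both strands were searched for direct repeats of AGGTCA with 1, 2 or 5 bases between, for the same repeats with degenerate forms of AGGTCA, for the octamer ATGCAAAT and for the nuclear receptor monomer site TCAAGGTCA. Neither promoter held any of them. Of 32851 promoters, 0.0396% held the exact repeat with 1 base between, 0.00913% that with 2 and 0.00913% that with 5. The degenerate repeats were in 0.222%, 0.268% and 0.0974%, the octamer in 1.74% and the monomer site in 0.423%. The sequences are in lower case throughout, for Tdgf1 chr9:110848663-110848912 (minus strand) and for Zscan10 chr17:23737543-23737792 (plus strand) in mm9.
Tdgf1: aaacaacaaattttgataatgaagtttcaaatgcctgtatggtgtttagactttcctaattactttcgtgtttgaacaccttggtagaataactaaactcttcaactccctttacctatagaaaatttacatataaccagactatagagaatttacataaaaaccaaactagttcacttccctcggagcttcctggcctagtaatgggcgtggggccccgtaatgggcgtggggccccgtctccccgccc
Zscan10: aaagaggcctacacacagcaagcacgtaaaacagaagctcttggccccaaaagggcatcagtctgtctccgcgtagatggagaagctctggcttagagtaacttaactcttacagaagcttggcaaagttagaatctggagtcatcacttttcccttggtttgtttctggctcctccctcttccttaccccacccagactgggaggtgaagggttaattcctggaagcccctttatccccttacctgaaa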

How the data were processed

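Per the labels, total RNA was extracted with TRIzol and sequenced as poly-T captured mRNA. The study's methods give paired-end reads of 150 bases. The authors aligned the reads with Bowtie2 2.1.0 to mm9, counted them per gene with featureCounts (annotation not given in the sources used here) and computed fold changes with DESeq2. The deposited tables hold the authors' log2 fold change and unadjusted p-value of each gene against WT EtOH d2, restricted to p-values under 0.01, and 1 table also holds the authors' standard error (a score column in the deposited file). No counts were used here, so the fold changes of 1 library against 1 library, which are the authors' own comparisons, were the only measurement and were neither refitted nor tested again.

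Each file was assigned to the sample it was deposited for and each sample to its group by its title. The SE was computed as the absolute log2 fold change divided by the normal quantile of its two-sided p-value, and it matched the deposited SE in the 144 genes of the WT ATRA d2 table with a largest relative difference of 4.27e-08. The calling of falls and the SE were checked on simulated data. A log2 fold change under -2 was called a fall. Genes named in the text were the 5 members, list genes listed in at least 1 table, and for each member the 5 genes with the most alike set of falls, ties being ordered by the smaller root mean square difference; D7Ertd143e was named as the gene just outside the choice. The members and the lists were chosen with earlier results of these data known. Retrocopies were located with BLAST+ 2.17.0 and compared with Biopython 1.88 and edlib. Gene positions came from GENCODE vM1 and neighbouring genes from RefSeq. Python 3.11 with pandas, numpy and scipy was used.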

Additional observations from a re-analysis of the deposited data

How the results depend on the processing

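Counts of falls were recomputed with thresholds of -1, -3 and -5, with a p-value limit of 0.001, with symbols matched without case and by older symbols, and with both retrocopies counted as 1, and the differences were recomputed after each table was centred on its median over the genes that both tables list. The total was also recomputed without the WT ATRA d10 table, an alternative chosen after seeing the data. Of 70 recomputed values 67 stayed within 1.5 times the reported count or within 1 SE of the reported difference, 3 moved, and 0 changed direction. Many had little room to move. A count cannot change direction, and removing 1 table could take out only its own 5 falls. A threshold of -1 could add few falls, since the day 10 tables listed none smaller than 2.75. With a p-value limit of 0.001 the total went from 56 to 39, which is within 1.5 times. So were Tdgf1 (16 to 11), Zscan10 (9 to 6), Pou5f1-rs6 (10 to 7) and Nr5a1 (9 to 8). The count for Tdgf1 went from 16 tables to 10 at a threshold of -5. Set against WT EtOH of the same day, the count was 7 of the 12 day 10 tables that could be compared. WT EtOH on day 4 did not list Tdgf1, so the day 4 falls were left out, and so was that of day 2. The 7 and the 16 are thus not counts over the same tables. The count for Pou5f1-rs4 went from 12 to 7 with a p-value limit of 0.001. The cause was not tested. No paired analysis was possible because each condition had 1 library, and for the same reason no library could be left out. Without counts, the depth of each library and the level of each gene are unknown, and a gene missing from a table cannot be given a value.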
